A study of Bos taurus with 179 samples.

Results

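The genes of the maturation promoting factor and of its direct regulators were followed through the growth of bovine oocytes. They comprised CKS1B together with CDK1, CCNB1, CCNB2, CCNB3, CKS2, CDC25A, CDC25B and CDC25C, which were chosen by name, with no threshold on a measured value. Each was matched to an Ensembl gene ID through the gene lists supplied with the study, so that 9 genes of the 21218 gene IDs in the count table were described. The IDs were ENSBTAG00000010109 for CDK1, ENSBTAG00000014239 for CCNB1, ENSBTAG00000005269 for CCNB2, ENSBTAG00000046286 for CCNB3, ENSBTAG00000024476 for CKS1B, ENSBTAG00000001938 for CKS2, ENSBTAG00000009586 for CDC25A, ENSBTAG00000008436 for CDC25B and ENSBTAG00000005293 for CDC25C.

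Maturation promoting factor is the kinase that drives a cell from prophase into metaphase. Its catalytic subunit CDK1 is active only when bound to a cyclin B, and the small CKS proteins bind the complex and help it reach substrates that are already phosphorylated. WEE family kinases keep the complex silent by phosphorylating CDK1, and CDC25 phosphatases remove these phosphates. A growing oocyte rests in the prophase of meiosis and accumulates mRNA and protein that it will need when meiosis resumes, and cyclin B is then broken down by the anaphase promoting complex. The counts report polyadenylated mRNA and carry no information on protein amount or kinase activity.

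Single oocytes of Bos taurus, freed of follicular cells, were sorted into 8 diameter groups, of which the smallest was < 60 μm, the largest > 120 μm, and the 6 between them spanned 10 μm each, from 60–69 to 110–119 μm. They came from abattoir ovaries, those of the smaller follicles by slicing the cortex and the fully grown ones by aspiration, and the sliced cortex and its oocytes were held in a cold medium with heparin and cilostamide, an inhibitor of phosphodiesterase that keeps oocytes in meiotic arrest. The route of collection thus went with oocyte size, and its part in differences between sizes cannot be told apart from that of diameter. The donor cow of an oocyte was not named in the labels. Of 179 oocytes, those that the study lists were used, 97 in replicate 1 (reads of 150 bp) and 68 in replicate 2 (reads of 75 bp), with 21, 25, 23, 24, 21, 18, 19 and 14 oocytes from the smallest to the largest group. The smallest group held 3 oocytes in replicate 1, and the largest held 4 in replicate 2.

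Total counts per oocyte ranged from 277126 to 8038061, with group medians from 2563427 in oocytes < 60 μm to 923622 in oocytes 100–109 μm in diameter. Levels are given as CPM, that is, as counts scaled to a total of 1000000 per oocyte or sum after TMM scaling, so they do not report molecules per oocyte. For the tests, the counts of all oocytes of a size group and replicate were summed to 16 sums, and the quasi-likelihood test of edgeR was run with the replicate in the model, with p-values adjusted over 14087 genes by Benjamini-Hochberg. A gene was called at an adjusted p under 0.05. Since animals were not named, the p-values measure the spread of the sums that is left once the mean shift between the 2 replicates is removed. For the slope this includes departures from a straight line over diameter, and the spread may be partly technical. The oocyte markers BMP15, BTG4, BCAR4 and AURKC had counts in every oocyte, and the summed level of the 6 oocyte markers had group medians from 3745 CPM (< 60 μm) to 7995 CPM (110–119 μm). The 3 granulosa and theca markers AMHR2, FSHR and CYP11A1 together had group medians of at most 0.747 CPM and a highest value of 16.1 CPM, and the 10 stroma, vessel and leukocyte markers together had group medians from 8.27 to 22.7 CPM.

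All 9 genes were present throughout growth. CDK1, the B cyclins, both CKS genes, CDC25B and CDC25C had at least 1 count in all 97 and 68 oocytes (100%, exact 95% confidence interval 97.8 to 100%), and CDC25A in 164 (99.4%, interval 96.7 to 99.98%). After each oocyte was thinned to 250000 counts, CDC25A was seen in 98.8% and CDC25B in 97.6% of oocytes, at a median of 7 and 11 counts, and the other 7 genes in 100%. The intervals cover counting error only. No size group lacked any of the 9 genes at this depth.

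Towards larger oocytes, 6 of the 9 genes were upregulated and 1 was downregulated. The test for this was the slope, the log2 change of CPM per 10 μm of the mean diameter of a sum, over all 8 groups. CDK1, CCNB2, CKS1B, CKS2, CDC25A and CDC25B rose, CCNB3 fell, and CCNB1 and CDC25C did not pass. For comparison, 33% of the 14087 genes tested were called in the slope, 14.8% upwards and 18.1% downwards. Between the smallest and the largest oocytes, 5 genes were called upwards and 1 downwards, against 19.2% of all genes called (9.36% upwards and 9.8% downwards). This count rests on the sums of the end groups: without the replicate 1 sum of either end group only CKS1B and CDC25B were called (beside 7.4% and 7.63% of all genes), without the replicate 2 sum of either 4 genes were called (beside 17.6% and 10.2%), and with no replicate in the model 0 were called (beside 0.575%; 5 of the 9 had an unadjusted p under 0.05). In the F test for any difference among the 8 groups, 6 of the 9 were called, against 14.9% of all genes. The median log2 fold change from < 60 to > 120 μm was 0.93 over the 9 genes and -0.12 over all genes tested (-0.09 with RLE in place of TMM scaling).

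**Figure D1:**
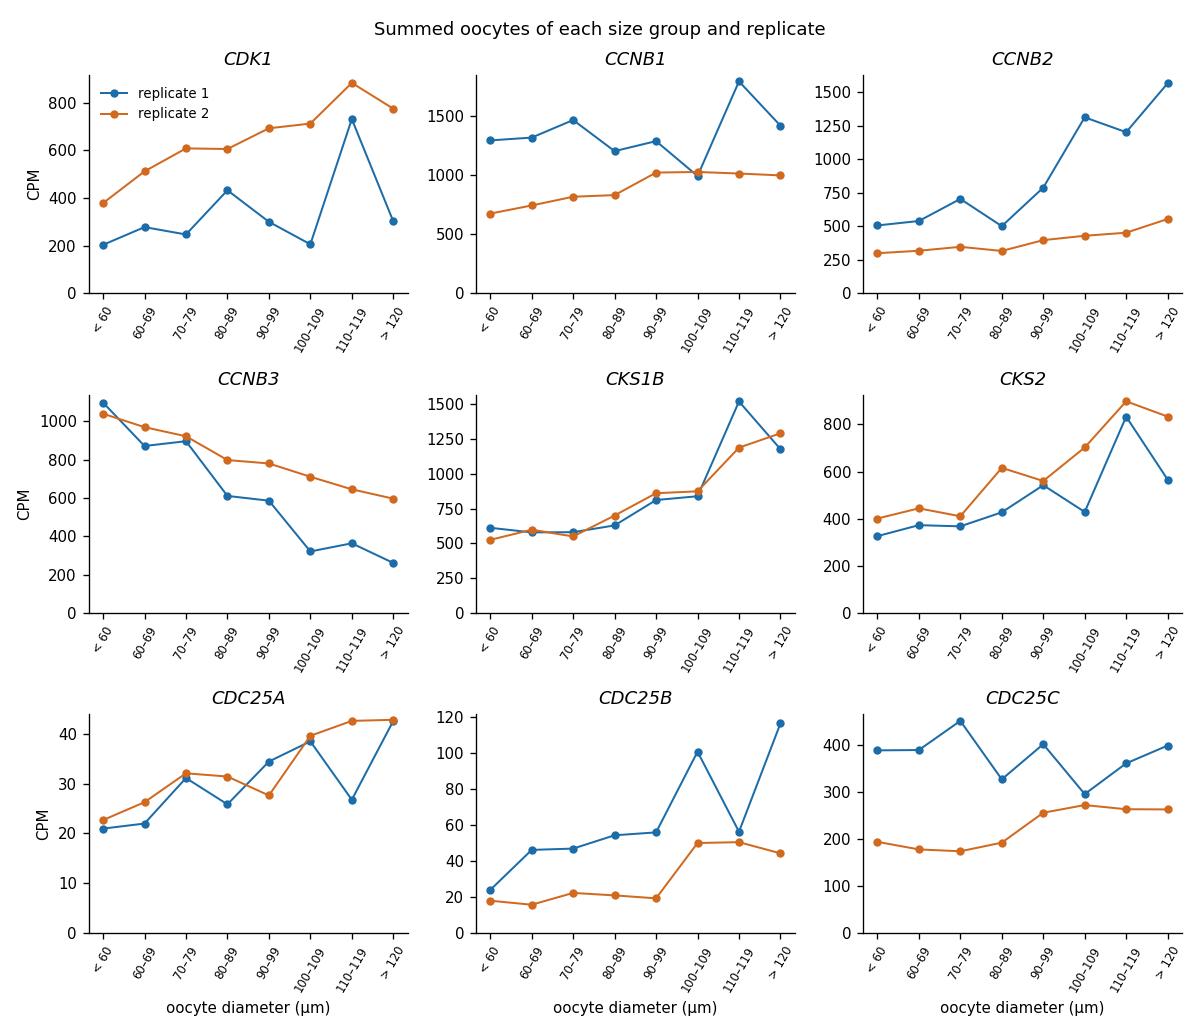
Level of each gene (CPM, y axis from 0) in the summed oocytes of each diameter group (μm, x axis), with replicate 1 in blue and replicate 2 in orange; each point is 1 sum and there is no error bar. CKS1B lay between 525 and 612 CPM in oocytes < 60 μm and between 1178 and 1292 CPM in oocytes > 120 μm, while CCNB3 went from 1039 to 1097 CPM down to 260.3 and 596 CPM.

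CDK1, the catalytic subunit, had higher values in replicate 2 than in replicate 1 in all 8 size groups. Its sums in replicate 1 were 202.8, 277.4, 246.5, 432.4, 299.7, 205.1, 731.9 and 301.6 CPM from the smallest to the largest group. In replicate 2 they were 378, 512, 609, 606, 693, 713, 884 and 776 CPM. Both series were highest at 110–119 μm and lower at > 120 μm. Per oocyte, the lowest, median and highest values in replicate 2 were 233.2, 392.5 and 638 CPM at < 60 μm and 497, 733 and 895 CPM at > 120 μm, so the end groups overlapped. The slope was 0.14 ± 0.04 (SE) per 10 μm with an adjusted p of 0.0163 in edgeR's test. The log2 fold change from < 60 to > 120 μm was 0.81 ± 0.33 and was not called (adjusted p = 0.0891). It was called by DESeq2, with all 179 oocytes, from thinned oocytes, with single oocytes as units and without the deepest oocytes of 100–109 or > 120 μm (adjusted p from 0.000881 to 0.0496), and without any 1 of 4 of the 16 sums, those of 100–109 and 110–119 μm. It was not called without any 1 of the other 12. With any 1 of the 16 sums left out it ranged from 0.73 to 1.01. From 100–109 to 110–119 μm, where the largest step lay, the log2 fold change was 1.07 ± 0.33 (adjusted p = 0.0648), and it ranged from 0.58 without the 110–119 μm sum of replicate 1 to 1.60 without the 100–109 μm sum of replicate 2. The step was called without any 1 of 4 of the 16 sums, namely both of < 60 μm and those of replicate 2 at 100–109 and 110–119 μm. Among the 8 groups CDK1 was called (adjusted p = 0.0434), a call that 5 of the 16 left-out sums ended (highest adjusted p = 0.158) and that was also lost with all 179 oocytes (adjusted p = 0.0612).

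The B cyclins, which activate CDK1 and set its timing, did not move together. CCNB2 rose and CCNB3, a cyclin B known from meiotic cells, fell. CCNB2 had sums of 505, 538, 703, 499.5, 787, 1312, 1201 and 1566 CPM in replicate 1. The sums in replicate 2 were 297.4, 315.8, 345.1, 314.3, 395.1, 427.6, 450.5 and 552.9 CPM. Every sum of replicate 1 was above that of replicate 2, by 1.59 to 3.07 times, and both series were highest in the largest oocytes. In the sum of 1312 CPM at 100–109 μm, 1 oocyte that made up 52.9% of the counts had 2114 CPM, against 672 to 972 CPM in the other 10 oocytes (median 837.5). Oocytes < 60 μm had 404 to 556 CPM of CCNB2 in replicate 1 (median 529.8, n = 3) and oocytes > 120 μm had 873 to 2772 CPM (median 1139, n = 10). In replicate 2 the ranges were 156 to 440.5 CPM (median 343.4, n = 18) and 461.1 to 651.7 CPM (median 535, n = 4). The end groups did not overlap in either replicate. The slope was 0.18 ± 0.03 (adjusted p = 0.00017), and the log2 fold change from end to end was 1.27 ± 0.30 (adjusted p = 0.00694, edgeR). The end-to-end call was lost when the sum of either end group of replicate 1 was left out, but that group is then 1 sum and the other groups give the spread. With any 1 of the 16 sums left out the change stayed between 1.04 and 1.61.

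CCNB3 was highest in the smallest oocytes of both replicates. Its sums were 1097, 871, 895.5, 610.0, 585, 320.3, 362.8 and 260.3 CPM in replicate 1. In replicate 2 they were 1039, 969, 921, 797, 779, 710.1, 644.5 and 596 CPM, each below the one before. Replicate 1 ended lower than replicate 2. In its sum of 320.3 CPM at 100–109 μm, 1 oocyte that made up 52.9% of the counts had 234.3 CPM, against a median of 564.7 CPM in the other 10. At > 120 μm the 2 deepest oocytes of replicate 1 made up 50.9% of the sum and had 193.6 and 286.2 CPM, against a median of 372.4 CPM in the other 8. Oocytes < 60 μm held 847 to 1627 CPM (median 1172) and oocytes > 120 μm 194 to 492 CPM (median 362) in replicate 1, with no overlap. The ranges in replicate 2 were 421 to 1900 CPM (median 1194) and 437 to 786 CPM (median 489), and these overlapped. The slope was -0.20 ± 0.03 (adjusted p = 9.77e-05), and the log2 fold change from end to end was -1.43 ± 0.34 (adjusted p = 0.00648, edgeR), 0.371 of the level in the smallest oocytes. Leaving out the smallest or the largest sum of replicate 1 ended the end-to-end call, where that group is then 1 sum and the other groups give the spread. With any 1 of the 16 sums left out the change stayed between -1.73 and -1.05, and no left-out sum ended the call in the slope. Among the 8 groups the adjusted p was 0.0279, and 7 of the 16 left-out sums ended that call (highest adjusted p = 0.102), as did the use of all 179 oocytes (adjusted p = 0.0559).

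CCNB1, the B cyclin whose translation is classically linked to the resumption of meiosis, had 994 to 1797 CPM over the sums of replicate 1 and 674.5 to 1028 CPM over those of replicate 2. In replicate 2 it was lowest in the smallest oocytes, and in replicate 1 the lowest and the highest values lay in neighbouring groups, 100–109 and 110–119 μm. In that lowest sum 1 oocyte of 7856854 counts made up 52.9% and had 879.6 CPM, while the other 10 oocytes had 1015 to 1662 CPM (median 1348). Oocytes of the end groups overlapped in both replicates. The slope was 0.05 ± 0.03 (adjusted p = 0.169), and the log2 fold change from end to end was 0.34 ± 0.29 (adjusted p = 0.447, edgeR). Without the deep oocyte the slope of CCNB1 was 0.07 ± 0.03 and was called (adjusted p = 0.0459, with 33.5% of all genes called), as was that from oocytes thinned to equal depth (0.07 ± 0.03, adjusted p = 0.034).

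The CCNB3 share of the counts of the 3 B cyclins per oocyte was lower in larger oocytes. These are shares of counts and depend on transcript length, so only their change within a gene is read. CCNB3 held 39.2 ± 8.36% (SD, n = 3) at < 60 μm and 10.1 ± 2.81% (n = 10) at > 120 μm in replicate 1. In replicate 2 it held 51.7 ± 7.50% (n = 18) and 26.6 ± 4.86% (n = 4). The highest share in oocytes > 120 μm was below the lowest in oocytes < 60 μm in both replicates, 14.7% against 29.7% and 33.1% against 34.3%. CCNB2 held 16.9 ± 5.59% and then 41.7 ± 16.5% in replicate 1, and 14.9 ± 6.63% and then 27.1 ± 5.60% in replicate 2. CCNB1 held 43.9 ± 9.46% and 48.2 ± 14.7% in replicate 1, a difference within 1 SD, and 33.4 ± 6.90% and 46.4 ± 0.96% in replicate 2.

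**Figure D2:**
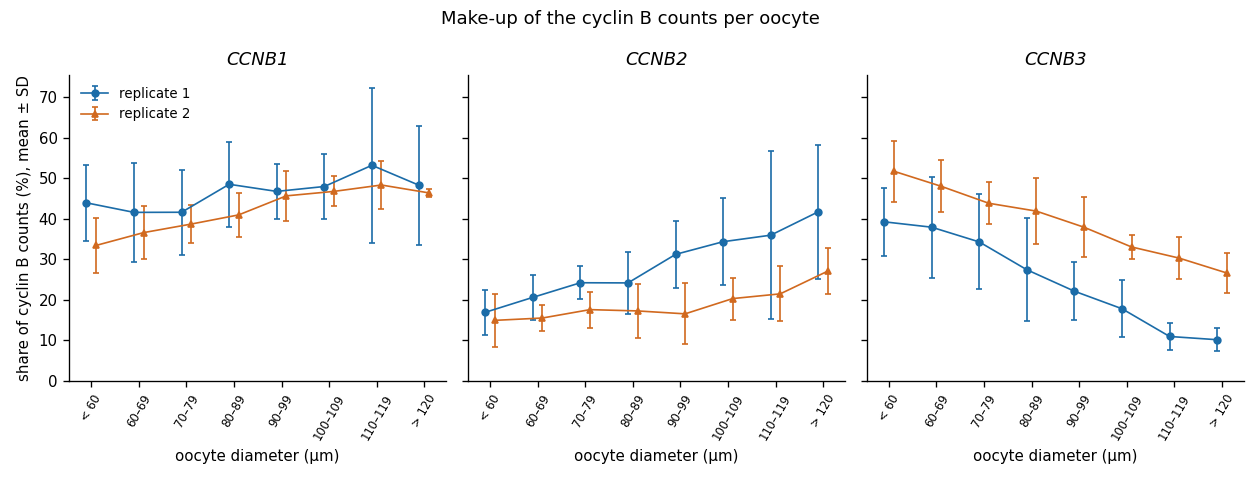
Share of CCNB1, CCNB2 and CCNB3 in the summed counts of the 3 B cyclins per oocyte (%, y axis from 0) by diameter group (μm, x axis); points are means and bars are SD over the oocytes of a group, with replicate 1 in blue and replicate 2 in orange. The CCNB3 share was lowest in oocytes > 120 μm, at 10.1% in replicate 1 and 26.6% in replicate 2.

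Both CKS genes rose. CKS1B, a small subunit that docks the kinase on phosphorylated substrates, had nearly equal values in the 2 replicates. Its sums were 612, 579, 580.5, 629, 812, 839, 1521 and 1178 CPM in replicate 1. In replicate 2 they were 525, 598, 549.8, 700.1, 861, 874.5, 1189 and 1292 CPM. Below 80 μm all 6 sums stayed between 525 and 612 CPM, and above 110 μm all 4 lay at 1178 CPM or higher. The 2 deepest oocytes of the > 120 μm sum in replicate 1 had 916 and 1015 CPM, and the other 8 had 1250 to 2913 CPM. Oocytes < 60 μm ranged from 383.5 to 804 CPM in replicate 1 (median 642.5) and from 299.6 to 854 CPM in replicate 2 (median 562). Oocytes > 120 μm ranged from 916 to 2913 CPM (median 1411) and from 963 to 1554 CPM (median 1197), so the end groups did not overlap in either replicate. The slope was 0.18 ± 0.03 (adjusted p = 4.47e-05), and the log2 fold change from end to end was 1.12 ± 0.27, a 2.17-fold higher level (adjusted p = 0.00718, edgeR). It was called in the slope, end to end and among the 8 groups whichever 1 of the 16 sums was left out.

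CKS2, the paralogue of CKS1B that mouse oocytes need to leave metaphase of the first meiotic division, also rose. Its sums were 325.8, 372.3, 367.3, 426.9, 542, 428.5, 833 and 566 CPM in replicate 1. In replicate 2 they were 401, 444, 410.1, 616, 560.0, 702, 898 and 834 CPM. Both series of sums were highest at 110–119 μm. In replicate 1 the 2 deepest oocytes made up 50.9% of the sum at > 120 μm and had 300.6 and 315 CPM, while the other 8 had 680 to 1634 CPM. The median over oocytes was 881 CPM there and 838 CPM at 110–119 μm. The end groups overlapped per oocyte, with 284 to 843 CPM at < 60 μm and 682 to 971 CPM at > 120 μm in replicate 2. The slope was 0.16 ± 0.03 (adjusted p = 0.00026), and the log2 fold change from end to end was 0.93 ± 0.27 (adjusted p = 0.0224, edgeR). Without the 2 deepest oocytes it was 1.35 ± 0.28 (adjusted p = 0.00283). Leaving out any 1 of the 4 sums of the end groups lost the end-to-end call, but an end group is then 1 sum and the other groups give the spread. With any 1 of the 16 sums left out the change stayed between 0.91 and 1.07, and none lost the call in the slope. The CKS1B share of the counts of both CKS genes per oocyte was 63.0 ± 6.78% at < 60 μm and 65.5 ± 7.85% at > 120 μm in replicate 1, and 55.5 ± 7.43% and 60.7 ± 1.67% in replicate 2, in each case within 1 SD of the smallest oocytes.

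**Figure D3:**
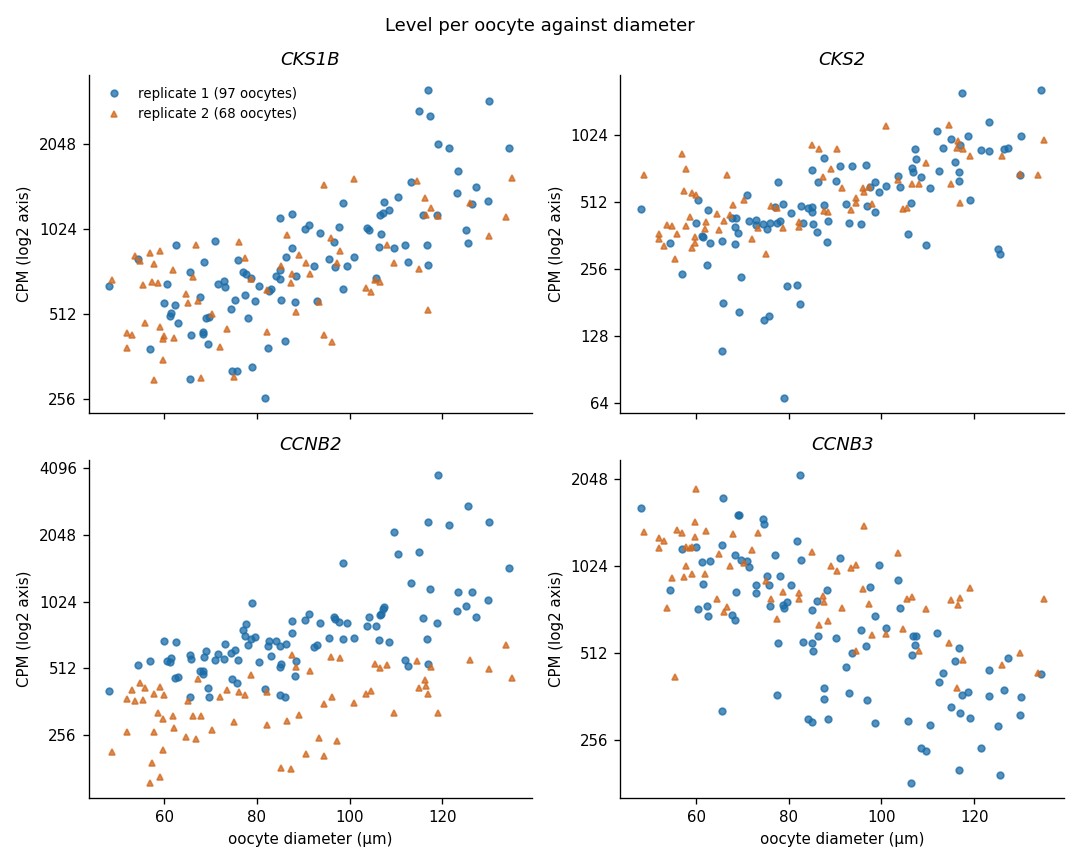
Level per oocyte (CPM, log2 y axis) of CKS1B, CKS2, CCNB2 and CCNB3 against oocyte diameter (μm, x axis); each point is 1 oocyte, blue circles for the 97 of replicate 1 and orange triangles for the 68 of replicate 2. CKS1B, CKS2 and CCNB2 sit higher in large oocytes and CCNB3 lower, and the group median of CCNB2 in replicate 2 lies below that in replicate 1 at all sizes, with some oocytes overlapping.

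Of the CDC25 phosphatases, which release CDK1 from its inhibition, CDC25A and CDC25B rose and CDC25C did not pass. CDC25A, known mainly for the entry into S phase, was scarce. Its sums were 20.9 to 42.6 CPM in replicate 1 and 22.7 to 42.9 CPM in replicate 2, lowest in oocytes < 60 μm and highest in oocytes > 120 μm of both. Oocytes of the end groups overlapped, at 7.41 to 35.4 CPM and 20.7 to 59.7 CPM in replicate 2. The slope was 0.12 ± 0.03 (adjusted p = 0.00325), and the log2 fold change from end to end was 0.98 ± 0.30 (adjusted p = 0.0301, edgeR). This end-to-end call was lost without any 1 of the 4 end sums, but an end group is then 1 sum and the other groups give the spread. With any 1 of the 16 sums left out the change stayed between 0.91 and 1.16.

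CDC25B, the phosphatase that mouse oocytes require to resume meiosis, had the steepest slope of the 9. Its sums were 23.7, 45.9, 46.7, 54.1, 55.7, 100.5, 56.0 and 116 CPM in replicate 1. In replicate 2 they were 17.7, 15.5, 22.1, 20.7, 19.0, 49.8, 50.2 and 44.0 CPM. Replicate 1 was higher in all 8 groups, by 1.12 to 2.96 times, and in replicate 2 the values lay at 15.5 to 22.1 CPM up to 90–99 μm and at 44.0 to 50.2 CPM from 100–109 μm. Oocytes < 60 μm had 15.6 to 37.0 CPM and oocytes > 120 μm 59.8 to 228 CPM in replicate 1, without overlap, while those of replicate 2 overlapped (1.65 to 40.8 and 25.7 to 57.3 CPM). The 2 deepest oocytes > 120 μm of replicate 1, which made up 50.9% of the sum of 116 CPM, had 168 and 184 CPM, while the other 8 had a median of 64.6 CPM and all 10 a median of 66.3 CPM. The slope was 0.25 ± 0.04 (adjusted p = 5.18e-05), and the log2 fold change from end to end was 1.78 ± 0.35, 3.43-fold higher (adjusted p = 0.00196, edgeR). Without these 2 oocytes it was 1.56 ± 0.34 (adjusted p = 0.00404). From 80–99 to 100–109 μm it was 1.08 ± 0.29 and not called (adjusted p = 0.0826), though it was called without any 1 of 3 of the 16 sums. This step was not called without any 1 of the other 13, nor without the deep oocyte of 100–109 μm (1.04 ± 0.28, adjusted p = 0.322, edgeR). Both the slope and the end-to-end change were called without any 1 of the 16 sums.

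CDC25C, the third of the family, had sums of 295.5 to 451.7 CPM in replicate 1 and 173.5 to 272.1 CPM in replicate 2. Replicate 1 was higher in all 8 groups, and neither series was ordered by size from end to end. In the lowest sum of replicate 1, at 100–109 μm, 1 oocyte that made up 52.9% of the counts had 226.4 CPM. The other 10 oocytes there had 283.7 to 548.2 CPM (median 435.9). At > 120 μm the 2 deepest oocytes of replicate 1 made up 50.9% of the sum and had 271.7 and 439.3 CPM, against a median of 618.3 CPM in the other 8. The slope was 0.04 ± 0.03 (adjusted p = 0.34), and the log2 fold change was 0.24 ± 0.30 (adjusted p = 0.622, edgeR). Within replicate 1 the slope was -0.019 ± 0.042 and within replicate 2 it was 0.09 ± 0.03 (adjusted p = 0.042), and the difference between these slopes was not called (0.11 ± 0.05, adjusted p = 0.428). From oocytes thinned to equal depth the slope was 0.07 ± 0.02 (adjusted p = 0.0335).

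Within 1 replicate the directions of the slope were kept by 8 of the 9 genes, CDC25C being the exception. Its slope in replicate 1 (-0.019 ± 0.042) lay within 1 SE of 0, and Pearson's r of its level per oocyte with diameter was 0.21 there. In replicate 1 alone, 5 genes were called in the slope (CKS1B, CKS2, CCNB2, CCNB3 and CDC25B), against 18.7% of all genes. In replicate 2 alone all 9 were called, against 18.2%. The difference of the slopes was called for no gene of the 14087 by edgeR (1527 had an unadjusted p under 0.05, and no other tool was run). The largest difference among the 9 was that of CCNB3, with -0.29 ± 0.05 in replicate 1 and -0.11 ± 0.03 in replicate 2 (difference 0.18 ± 0.05, adjusted p = 0.227). CCNB2 had slopes of 0.24 ± 0.05 and 0.11 ± 0.03 (difference -0.12 ± 0.05, adjusted p = 0.417). CKS1B had nearly the same slope in both, 0.18 ± 0.05 and 0.19 ± 0.03.

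**Figure D4:**
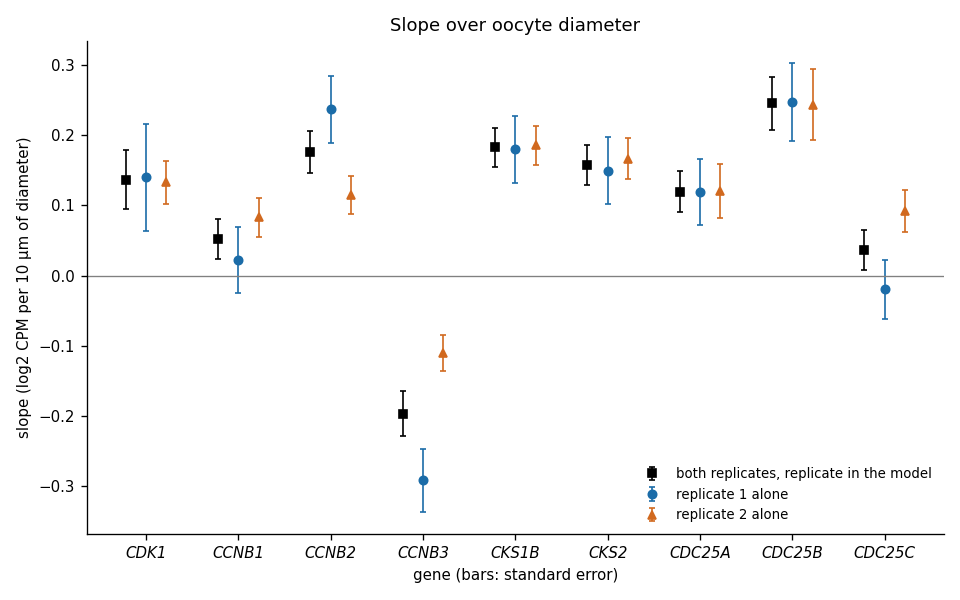
Slope of each gene (log2 CPM per 10 μm of diameter, y axis; genes on the x axis) from both replicates with the replicate in the model (black squares), from replicate 1 alone (blue circles) and from replicate 2 alone (orange triangles); bars are standard errors. CDC25B was highest at 0.25 and CCNB3 was the only gene below 0 with both replicates, at -0.20.

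By edgeR, no gene of the 9 was called in any of the 7 comparisons of successive stages: < 60 with 60–69 μm, both of these with 70–79 μm, 70–79 with 80–99 μm, 80–89 with 90–99 μm, 80–99 with 100–109 μm, 100–109 with 110–119 μm, and 110–119 with > 120 μm. These comparisons called 0.0142%, 0.135%, 0%, 0%, 0.497%, 3.88% and 0.0071% of all genes in the same order. At an unadjusted p under 0.05 by edgeR, 0 of the 9 passed in the first 4 steps, 2 passed at 100–109 μm (CCNB2 and CDC25B), 3 passed at 110–119 μm (CDK1, CKS1B and CKS2) and 1 passed at > 120 μm (CDK1). Of all genes, 16.1%, 26.0% and 11.1% passed in these 3 steps, so the counts stand near the background. Without the deep oocyte of 100–109 μm, CCNB2 had a log2 fold change of 0.31 ± 0.24 in the step to that group in place of 0.69 ± 0.25. DESeq2 called CDC25B at 100–109 μm (3.65% of all genes) and CDK1, CKS1B and CKS2 at 110–119 μm (14.5%), and none in the other 5 steps. Over the 6 groups up to 109 μm, 6 of the 9 were called in the slope (21.7% of all genes), and over the 6 groups from 70 μm, 5 were called (14.0% of all genes). CKS1B, CKS2, CCNB2, CCNB3 and CDC25B were called over both ranges, and CDK1 over neither (adjusted p = 0.175 and 0.363).

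The order of levels over the oocytes was also described by correlation with diameter, over the 97 and 68 oocytes with the mean of each replicate removed. The oocytes of a replicate share a read length and may share cows, and the values share the normalisation, so no p is given. Pearson's r of log2(CPM + 1) was 0.67 for CKS1B, 0.61 for CKS2, 0.60 for CCNB2, 0.47 for CDC25B, 0.43 for CDK1, 0.38 for CCNB1, 0.34 for CDC25A, 0.27 for CDC25C and -0.64 for CCNB3. Spearman's rho was 0.66, 0.66, 0.62, 0.42, 0.48, 0.39, 0.39, 0.22 and -0.66 in the same order. Among the 14087 genes tested, 0.916% had an r at least as high as CKS1B, and 0.795% had one as low as CCNB3. When the 2 oocytes whose diameter lay farthest from the median were left out, r was 0.65 for CKS1B and -0.65 for CCNB3. Over all 179 oocytes, with the 14 that the study does not list and with CPM of raw totals, r was 0.45 for CKS1B and -0.18 for CCNB3, while CPM of raw totals over the listed oocytes gave 0.64 and -0.67. All 9 genes kept the sign of r within each replicate.

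Over oocytes, the genes formed few close pairs. Of the 36 pairs, 25 had a positive and 11 a negative Pearson's r, with a median of 0.09. The CKS pair was closest (CKS1B with CKS2, r = 0.81), followed by CCNB1 with CDC25C (0.62), CKS1B with CCNB2 (0.61) and CDC25A with CDC25B (0.45). The lowest values were those of CCNB3 with CKS1B (-0.64), CCNB2 (-0.56) and CKS2 (-0.46). With the mean of each size group and replicate removed, so that differences between size groups no longer entered, r stayed at 0.65 for CKS1B with CKS2 and at 0.61 for CCNB1 with CDC25C. It was 0.29 for CKS1B with CCNB2 and -0.35 for CKS1B with CCNB3, and only 14 of the 36 pairs were positive. CDK1 and its partner CCNB1 had an r of 0.39 over all sizes and 0.23 within them, and CDK1 with CCNB2 had 0.01 and -0.38. These values share the depth and scaling of each library.

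**Figure D5:**
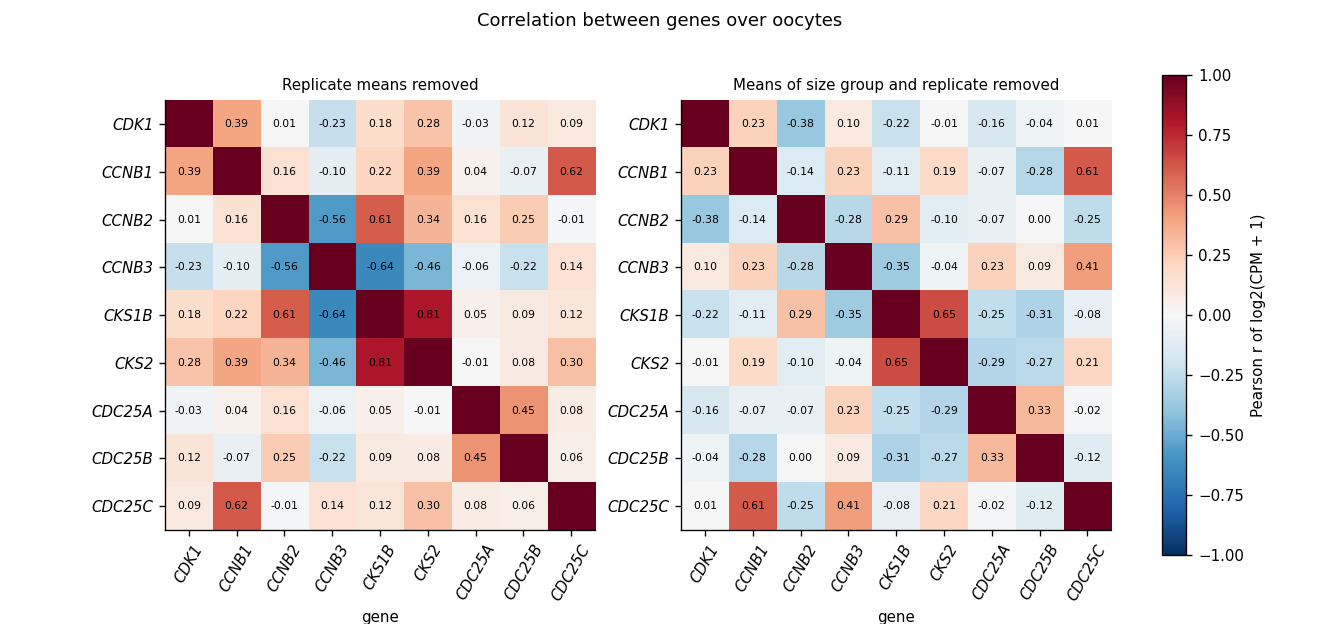
Pearson's r of log2(CPM + 1) between the 9 genes over the oocytes of both replicates (both axes list the genes, colour from -1 in blue to 1 in red), on the left with replicate means removed and on the right with the means of each size group and replicate removed. CKS1B with CKS2 (0.81 and 0.65) and CCNB1 with CDC25C (0.62 and 0.61) keep high values on both sides.

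The genes most alike to 8 of the members were looked up among 1583 other genes that had a symbol and a mean of at least 10 CPM, by r over the same oocytes. For CKS1B they were C6orf52 (0.81), CKS2 (0.81) and ATP5MC1, a subunit of the mitochondrial ATP synthase (0.79). The closest gene to CDK1 was CDC27, a subunit of the anaphase promoting complex (0.75). CCNB1 was closest to CNEP1R1 (0.72), CCNB2 to the aldo-keto reductase AKR1B1 (0.83), CDC25A to BIN2 (0.61) and CDC25B to BAIAP2 (0.67). For CKS2 the closest gene was CKS1B, and for CDC25C it was CCNB1. Only 3608 of the 21218 gene IDs had a symbol, so genes outside those compared may lie closer.

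The genes listed from the wider cell cycle machinery did not move in 1 direction. Of 30 kinases, cyclins and regulators around the complex, 8 were upregulated and 4 downregulated in the slope, with a median slope of 0.004 against -0.02 over all genes tested. These 12 of 30 stand beside the 33% of all genes that were called (14.8% upwards, 18.1% downwards). From end to end 4 of the 30 were called (CCNE2 and CCNF upwards, CCNH and CDKN3 downwards), beside 19.2% of all genes. Among the 8 groups 4 of the 30 were called, beside 14.9%. The steepest rise was that of CCNE2, a cyclin E, from 7.57 and 7.72 CPM in the 2 sums of oocytes < 60 μm to 20.7 and 67.3 CPM in those > 120 μm (slope 0.35 ± 0.05, adjusted p = 1.31e-05, edgeR). CDKN3, a phosphatase that acts on CDKs, fell most, from 8.09 and 6.49 to 1.49 and 0.93 CPM (slope -0.30 ± 0.06, adjusted p = 0.00103). Of 13 genes of the anaphase promoting complex and its activator CDC20, 2 rose and 2 fell with a median slope of -0.01, a share near the 33% of all genes. In the test among the 8 groups 4 of the 13 were called (ANAPC13, CDC23, CDC26 and CDC20), beside 14.9% of all genes. From end to end 1 of the 13 was called (ANAPC11, upwards), beside 19.2% of all genes. In the step from 100–109 to 110–119 μm 3 of the 13 were called, beside 3.88%: CDC27 (log2 fold change 1.35 ± 0.36, adjusted p = 0.0456) and CDC26 (1.22 ± 0.33, adjusted p = 0.0483) upwards and CDC20 (-1.16 ± 0.31, adjusted p = 0.0449) downwards. Each of these calls was lost with 8 or 9 of the 16 sums left out in turn (highest adjusted p = 0.548), and that of CDC20 also without the deep oocyte of 100–109 μm (-0.73, adjusted p = 0.178). ANAPC11, its RING subunit, went from 116 and 102 to 279.1 and 160.1 CPM (slope 0.11 ± 0.03, adjusted p = 0.00711), and CDC23, a scaffold subunit, from 226.9 and 115.2 to 97.6 and 68.7 CPM (slope -0.16 ± 0.04, adjusted p = 0.00837), though its end-to-end change was not called (adjusted p = 0.0606). The lists include only genes whose symbol the study pairs with an ID, and no list is complete.

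Among 11 adenylyl cyclases and anchors of protein kinase A, which take part in the cAMP arrest that keeps the complex inactive, 9 passed the filter on low counts, 2 rose and 1 fell, with a median slope of 0.01, again a share near the 33% of all genes. All 3 were scarce. ADCY5, a cyclase, had 0.66 and 0.95 CPM in oocytes < 60 μm and 15.8 and 1.17 CPM in oocytes > 120 μm (slope 0.54 ± 0.08, adjusted p = 4.99e-05, edgeR), so the high value stood in 1 replicate. AKAP1, an anchor of protein kinase A, went from 1.91 and 8.97 CPM to 26.6 and 22.1 CPM (slope 0.27 ± 0.06, adjusted p = 0.00188) and was also called end to end (adjusted p = 0.00696). ADCY10, the soluble cyclase, had 0.81 and 0.93 CPM and then 0.08 and 0 CPM (slope -0.63 ± 0.17, adjusted p = 0.00846), and its end-to-end change was not called (adjusted p = 0.16).

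Markers of other cells and depth were set beside these results. Of the 6 oocyte markers, 5 rose in the slope and none fell, beside 14.8% and 18.1% of all genes. Their median slope was 0.18, against -0.02 over all genes tested. Of the granulosa and theca markers only FSHR passed the filter and it was not called, and AMHR2 and CYP11A1 were at 0 in 155 and 156 oocytes. Of the 10 stroma, vessel and leukocyte markers, 4 passed, COL1A2 rose and CD74 fell, at CPM values no higher than 35.8 and 7.27 in any oocyte. The part of these markers in the results was not tested. When every oocyte was thinned to 250000 counts, which gives all oocytes the same weight, all 9 genes were called in the slope (39.1% of the 10827 genes then tested), with 0.19 for CKS1B, 0.17 for CKS2, 0.17 for CCNB2, 0.14 for CDK1, 0.21 for CDC25B and -0.18 for CCNB3.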

How the data were processed

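The deposited table holds raw read counts per gene, made by the authors with Trim Galore 0.6.6 (per the labels), HISAT2 on ARS-UCD1.2 and SeqMonk, from poly(A)-captured Smart-seq2 libraries, so they cover mRNA with a poly(A) tail. Lines that share a gene ID were summed; CDK1 had 2, one without counts. The 14 oocytes not listed by the study were left out. The CPM and correlations were computed with pandas 2.3.3, and tests with edgeR 4.0.16 in R 4.3.3 (TMM, filterByExpr with a minimum count of 10, replicate as a block), after being tested on simulated data. DESeq2 1.42.0 was an alternative. The replicates held different oocytes and were sequenced at different read lengths, and the paper describes the libraries as prepared in 2 replicates. In all 28 pairs of size groups the sums of 1 replicate deviated together (r from 0.40 to 0.69). Transcripts of near-identical copies could share reads. The members and lists were chosen with earlier results of these data known. Other genes named in the report were those with the steepest called slope, up and down, in each list, and those most correlated with a member (that of CCNB3 is not reported here); further genes were chosen after their values were seen. No columns of other samples were present.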

Additional observations from a re-analysis of the deposited data

Results flagged for a closer look

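Single oocytes were compared with the others of their size group and replicate in the 8 such groups that held 4 to 10 oocytes, which gave 72 tests over the 9 genes. A value was singled out where its gap to the nearest oocyte took up more of the range than Dixon's 95% limit, which chance alone does in about 1 in 20 groups, and 6 values met it. All 6 were the highest of their group. CKS1B reached 1539 CPM in an oocyte of 100–109 μm in replicate 2 (next highest 897) and 2913 CPM in one > 120 μm in replicate 1 (next highest 1981). CCNB1 reached 2606 CPM in an oocyte of 90–99 μm (next highest 1212) and 1760 CPM in one of 100–109 μm (next highest 1173), both in replicate 2. CKS2 reached 679.8 CPM in an oocyte of 60–69 μm (next highest 497.5) and 885 CPM in one of 90–99 μm (next highest 598), both in replicate 2. No value of CDK1, CCNB2, CCNB3 or the CDC25 genes was singled out. The difference of the slopes between the replicates was called for none of the 9 genes.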

How the results depend on the processing

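The slope called 6 to 9 of the 9 genes under the 7 other analyses of all sums (15.6% to 57.7% of all genes), and 7 to 8 when 1 of the 16 sums was left out (26.5% to 32.8%). With no replicate block, the slope called 6 (15.6% of all genes; CDK1 was lost, adjusted p = 0.16), but the end-to-end comparison and the test among 8 groups called 0 each (0.575% and 0% of all genes), and the 3 pathway lists had 7 calls in the slope in place of 19. RLE scaling changed none of the counts of the 9 genes. In the step to 100–109 μm, DESeq2, no filter on low counts and single oocytes as units called 1 each (3.65%, 2.02% and 6.18% of all genes), and in the step to 110–119 μm they called 3, 1 and 3 (14.5%, 7.33% and 37.0%). Single oocytes as units also called 1 in the step to 80–99 μm and 1 in the step to > 120 μm (2.66% and 4.71% of all genes), treating oocytes that may share a cow as independent. Leaving out 1 sum gave 0 to 1 calls in the steps to 100–109 μm and 110–119 μm (0% to 1.99% and 0% to 9.94% of all genes), 2 to 7 from end to end (7.4% to 19.0%; 2 without replicate 1 of either end group) and 4 to 6 among the 8 groups (10.6% to 18.9%). All 179 oocytes gave 4 among the 8 groups (11.1%). CDC25C had a slope of -0.019 in replicate 1 alone, and 14 of 36 pairs were positive within size groups. The causes of these changes were not tested. The within-replicate slopes, both partial ranges, the removal of the deepest oocytes and the removal of group means were chosen after seeing the data. Without the deepest oocyte of 100–109 μm, the slope called 8 genes, and the step to 100–109 μm called 0 of all genes in place of 70. Thinned to 250000 counts per oocyte, CDC25A and CDC25B had medians of only 7 and 11 counts. No sequences or coordinates are printed.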

Other observations

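Other genes around the complex were called in the slope and are named here after their values were seen. Of those printed here with levels, CCNF alone was also called between the end groups. CCNF, which encodes cyclin F, went from 8.45 and 11.1 CPM in the sums of oocytes < 60 μm to 65.4 and 23.8 CPM in those > 120 μm (slope 0.25 ± 0.05, adjusted p = 0.00132; end to end adjusted p = 0.00501, edgeR). The end-to-end changes of the others had adjusted p-values of 0.124 for AURKA, 0.144 for BORA, 0.141 for CDK7, 0.0955 for CPEB4 and 0.0553 for ARPP19. AURKA, a kinase that acts on the path to CDK1 activation, had 3649 and 1904 CPM in the sums of oocytes < 60 μm and 6936 and 2383 CPM in those > 120 μm (slope 0.10 ± 0.03, adjusted p = 0.0179, edgeR). Its activator BORA went from 145 and 117 to 177 and 230.4 CPM (slope 0.13 ± 0.04, adjusted p = 0.00902). CDK7, the catalytic subunit of the CDK-activating kinase, went from 206.5 and 259.9 to 257.7 and 485.3 CPM (slope 0.10 ± 0.03, adjusted p = 0.0108). CPEB4, which controls poly(A) tails of stored mRNA, went from 23.4 and 75.0 to 32.2 and 197.8 CPM (slope 0.13 ± 0.04, adjusted p = 0.0105). ARPP19, an inhibitor of the phosphatase that opposes CDK1, had 172.2 and 145.6 CPM in the sums of oocytes > 120 μm (slope -0.11 ± 0.04, adjusted p = 0.0289). CPEB3 and BTRC, a subunit of a ubiquitin ligase, also fell, with slopes of -0.09 and -0.07.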
